A study of Mus musculus with 18 samples.

Results

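Metallothioneins and zinc-handling genes were followed in mouse oocytes with and without the lipid kinase VPS34, as a set of 6 genes out of 55291 in the deposited table. Mt1 was chosen by its count level in these libraries, which was higher in the knockout at both stages, so its genotype difference is given as a description without a test. Mt2, Mtf1, Slc30a1, Slc39a6 and Slc39a10 were chosen as zinc genes and found by symbol. ZcKO oocytes came from females with both Vps34 alleles floxed and a Zp3-Cre transgene, and control oocytes from Vps34 floxed/floxed females without Cre. The Zp3 promoter drives Cre in growing oocytes. Every ZcKO library and no control library carries the transgene, so the loss of VPS34 and the presence of the transgene cannot be told apart. Fully grown germinal vesicle (GV) oocytes were taken 46 h after PMSG and ovulated metaphase II (MII) oocytes 14 h after hCG, all from females of 5 weeks. Each of the 4 groups had 3 libraries (n = 3 throughout) of 5 pooled oocytes, made by Smart-seq2 with ERCC spike-in RNA.

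Metallothioneins are small cysteine-rich proteins that bind zinc and copper and buffer the free metal. The zinc-sensing transcription factor MTF1 binds metal response elements and induces Mt1, Mt2 and Slc30a1, whose product ZnT1 exports zinc across the plasma membrane. ZIP6 and ZIP10, encoded by Slc39a6 and Slc39a10, import zinc, and mouse oocytes take up zinc as they mature and release part of it after fertilization.

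Libraries held between 2609783 and 4696626 gene counts. Pik3c3, which encodes VPS34, was at 1.56 to 2.67 CPM (counts per 1000000 gene counts) in ZcKO GV oocytes against 25.8 to 35.5 CPM in control GV oocytes. It was at 2.42 to 5.36 CPM in ZcKO MII oocytes against 10.6 to 21.4 CPM in control MII oocytes. All 9 oocyte markers were detected in each group. Gene counts per ERCC count ranged from 6.29 to 13.1 in ZcKO GV and 4.35 to 8.69 in control GV libraries, and from 1.51 to 2.21 in ZcKO MII and 1.85 to 2.42 in control MII libraries. Changes between stages scaled to gene counts are therefore changes relative to the other mRNAs of the oocyte. They are changes in RNA as captured and counted. Whether each mRNA was captured equally well at GV and MII was not tested, and ERCC scaling does not show it.

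The classical metallothionein pair differs enough in sequence for reads to be assigned to 1 of them. Mt1 (ENSMUSG00000031765.8) lies at chr8:94179082-94180327 and Mt2 (ENSMUSG00000031762.7) at chr8:94172664-94173568, both on the plus strand of GRCm38. Their coding sequences, from GENCODE M21 transcripts of this build, are shown because the counts of the 2 genes differed in these libraries. Capitals mark the bases that differ between them.
Mt1: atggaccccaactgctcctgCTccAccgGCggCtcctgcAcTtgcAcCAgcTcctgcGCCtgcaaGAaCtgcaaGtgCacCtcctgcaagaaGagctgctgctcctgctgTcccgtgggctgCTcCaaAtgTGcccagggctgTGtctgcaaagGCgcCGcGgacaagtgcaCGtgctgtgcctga
Mt2: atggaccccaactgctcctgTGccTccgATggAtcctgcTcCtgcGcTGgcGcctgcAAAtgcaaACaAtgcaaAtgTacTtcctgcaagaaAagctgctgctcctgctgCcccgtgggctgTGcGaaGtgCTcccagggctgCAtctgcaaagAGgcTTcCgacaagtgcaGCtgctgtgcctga
Both run for 186 bases with 20 cysteine codons. They differ at 38 bases (79.57% identity), and their longest shared run is 20 bases. None of the 1292 stretches of 50 bases in the annotated Mt1 transcripts occurs in a transcript of another gene. For Mt2, 254 of 554 such stretches occur in the antisense gene Gm45774, which had 0 counts in all 12 libraries. No strand setting is known, so whether reads from that part of Mt2 were counted for either gene is not known. The counts of Mt2 may therefore be low.

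The promoter windows of the genes that MTF1 is known to induce are shown with the core of the metal response element in capitals. RefSeq windows (GRCm38.p6) run from 250 bases before to 50 after the annotated start, and 5 of the 6 genes had one. The core was searched as TGCACNC and TGCGCNC on both strands, with no match overlapping another. The capitals in the lines for Mt2 and Slc30a1 include reverse complements of these letters.
Mt1 promoter, chr8:94178839-94179138, plus strand: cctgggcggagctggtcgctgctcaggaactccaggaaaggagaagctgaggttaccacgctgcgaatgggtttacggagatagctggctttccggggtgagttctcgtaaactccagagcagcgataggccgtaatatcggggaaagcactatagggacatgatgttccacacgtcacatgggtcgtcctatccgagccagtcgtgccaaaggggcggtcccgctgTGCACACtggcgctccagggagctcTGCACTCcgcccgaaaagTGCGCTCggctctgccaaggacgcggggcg
Mt2 promoter, chr8:94172368-94172667, plus strand: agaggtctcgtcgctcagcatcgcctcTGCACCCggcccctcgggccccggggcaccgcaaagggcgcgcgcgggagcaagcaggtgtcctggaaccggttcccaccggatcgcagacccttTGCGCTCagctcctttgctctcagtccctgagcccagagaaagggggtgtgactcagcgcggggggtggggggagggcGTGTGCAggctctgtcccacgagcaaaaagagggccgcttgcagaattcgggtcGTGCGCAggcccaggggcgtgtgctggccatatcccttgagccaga
Slc30a1 promoter, chr1:191906531-191906830, plus strand: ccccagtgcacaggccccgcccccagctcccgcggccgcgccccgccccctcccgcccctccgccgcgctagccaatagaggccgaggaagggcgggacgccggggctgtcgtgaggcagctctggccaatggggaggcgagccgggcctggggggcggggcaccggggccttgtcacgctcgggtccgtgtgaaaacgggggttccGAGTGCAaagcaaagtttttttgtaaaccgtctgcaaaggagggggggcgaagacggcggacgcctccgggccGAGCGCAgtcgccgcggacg
Mt1 held 3 matches, starting at bases -23, 3 and 21 with the first base of the annotated transcript as 1. Whether transcription begins at that base was not examined, and matches outside the window were not counted. Mt2 held 4 matches and Slc30a1 held 2. Of 32851 mouse promoter windows, 25.7% had at least 1 match, 7.114% at least 2, 1.969% at least 3 and 0.5175% at least 4. The windows of Mtf1 and the 2 annotated starts of Slc39a10 held 0. A match describes the letters of a window and does not show binding.

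Mt1 was the most abundant transcript per length among the metallothionein and zinc transporter genes in ZcKO GV oocytes. Its counts were 1268, 1593 and 898 in the 3 ZcKO GV libraries, against 15, 13 and 267 in the 3 control GV libraries. Scaled to library size this is 394, 439 and 299 CPM in ZcKO and 5.07, 3.43 and 56.8 CPM in control. All 3 ZcKO libraries lay above all 3 controls, and the third control stood apart from the other controls. The log2 fold change was 4.01 (SE 0.94), a 16.1-fold difference and the second highest of 10911 genes fitted at GV. Without the third control library it was 6.44 (SE 0.36).

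In MII oocytes the same ordering of Mt1 held with a smaller distance between the genotypes. Mt1 had 141, 229 and 104 counts in the ZcKO MII libraries, against 31, 111 and 56 in the control MII libraries. These are 54.0, 69.3 and 37.1 CPM in ZcKO and 8.45, 33.5 and 15.2 CPM in control, without overlap. The log2 fold change was 1.48 (SE 0.41), or 2.78-fold, with 27 of 9677 genes having a higher one. Among all genes fitted at each stage, ZcKO lay above control without overlap for 4.96% at GV and 8.19% at MII, and 0.396% of 9088 genes did so at both stages. These shares describe the rule that chose Mt1 and are not support for it.

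Per unit of spike-in RNA, the genotypes were separate in Mt1 at GV and overlapped at MII. Per 100000 ERCC counts it had 517, 326 and 188 counts in ZcKO GV libraries, against 2.21, 2.40 and 49.4 in control GV libraries. It had 11.0, 15.3 and 5.59 in ZcKO MII libraries, against 1.56, 7.74 and 3.68 in control MII libraries. On this scale the lowest ZcKO MII library lay below the highest control MII library.

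**Figure D1:**
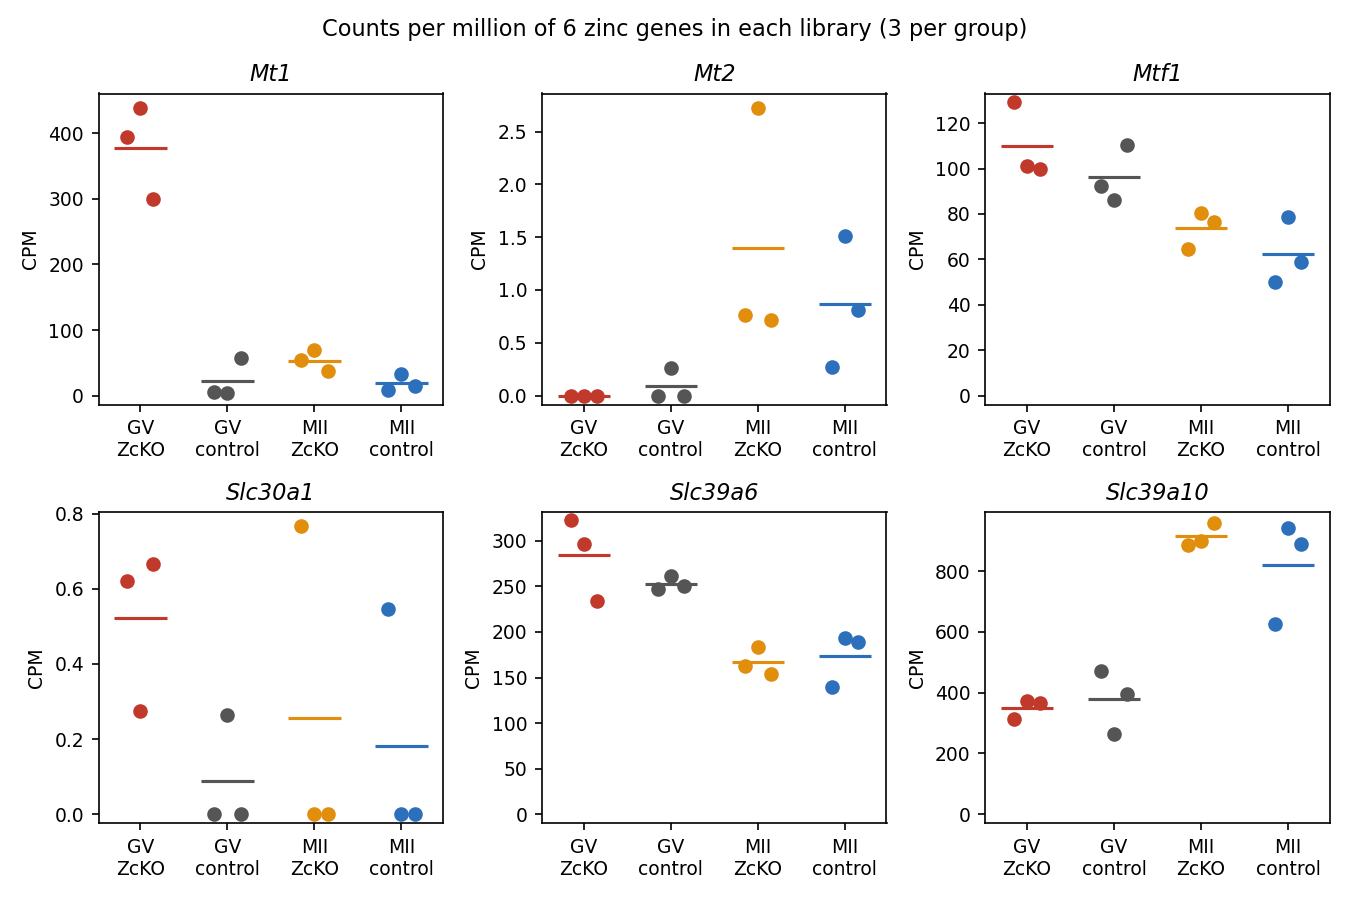
CPM (vertical axes, linear, 1 scale per gene) of the 6 genes in each library, with points for libraries and lines for group means of 3. Mt1 is 299 to 439 CPM in ZcKO GV oocytes and 3.43 to 56.8 CPM in control GV oocytes, while Mtf1, Slc39a6 and Slc39a10 overlap between genotypes at both stages.

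Cumulus and granulosa cells, which surround the oocyte, also express metallothioneins, and their markers were read in the same libraries. The 18 markers summed to 78.5 to 103 CPM in ZcKO GV oocytes against 101 to 123 CPM in control GV oocytes, with Ptx3 and Tnfaip6 at 0 in both groups and Foxl2 at 0 in ZcKO. At GV the 2 libraries with the highest Mt1 had the 2 lowest marker sums. At MII the sums were 142 to 682 CPM in ZcKO against 200 to 324 CPM in control, with Fshr at 0 in ZcKO, Amhr2 at 0 in control and Amh at 0 in both. At GV, 4 of 6 fitted markers had a negative log2 fold change, ZcKO over control, and 2 had a positive one. The median was -0.032 beside 0.012 over all genes, and the highest value was 0.65. Hsd17b1 stood at -2.43 (SE 0.44, adjusted p = 0.121 in edgeR) and Inha at -1.32 (SE 0.23, adjusted p = 0.11 in edgeR). Of the markers not fitted at GV, Lhcgr was higher in ZcKO, at 2.33 to 2.76 CPM against 0 to 0.639 CPM in control. Fst was lower in ZcKO GV, at 0 to 1.67 CPM against 2.64 to 4.06 CPM in control GV oocytes. At MII, 9 of 11 fitted markers had a positive log2 fold change, as Mt1 did, with a median of 0.65 beside 0.017 over all genes. Cyp11a1, a steroid synthesis enzyme, had 26.4, 5.15 and 8.20 CPM in ZcKO MII against 0.818, 0 and 1.36 CPM in control MII oocytes, without overlap (log2 fold change 4.03, SE 0.84, adjusted p = 0.53 in edgeR). Among MII controls the library with the most Mt1, 33.5 CPM, also had the highest marker sum. Among ZcKO MII libraries the one with the most Mt1, 69.3 CPM, had a sum of 215 CPM. The ZcKO MII library with a sum of 682 CPM had 54.0 CPM of Mt1. The median sums at MII were 215 CPM in ZcKO and 218 CPM in control. The part of these cells in the MII levels of Mt1 was not tested. In bulk libraries of 5 oocytes, more RNA from attached cells and more RNA per oocyte cannot be told apart.

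**Figure D2:**
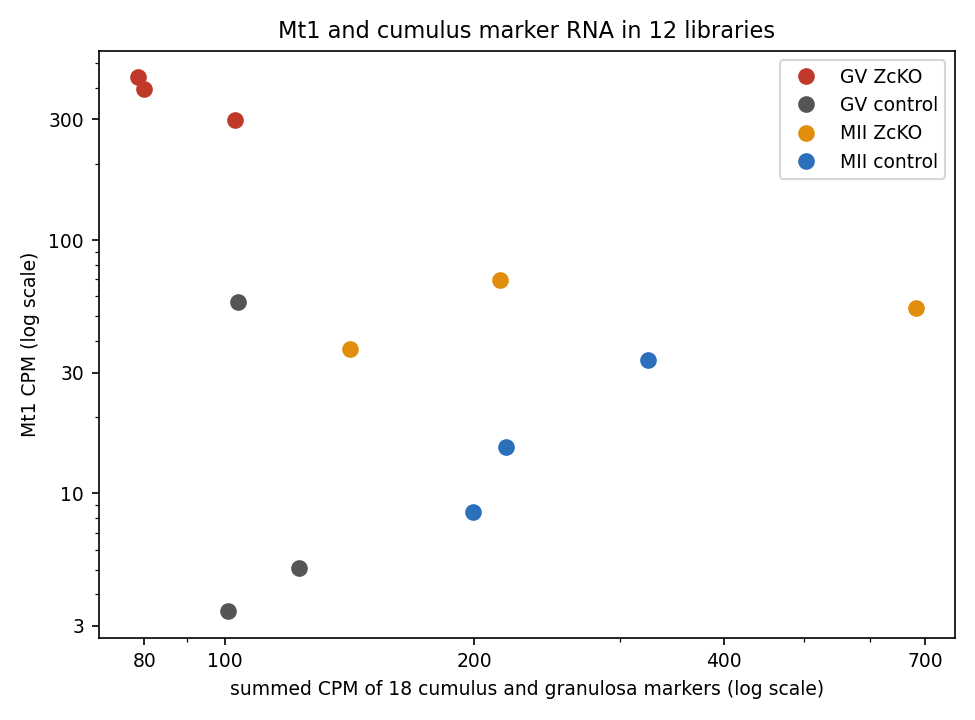
Mt1 CPM (vertical, log scale) against the summed CPM of 18 cumulus and granulosa markers (horizontal, log scale), 1 point per library. The 3 ZcKO GV libraries have the highest Mt1 at marker sums of 78.5 to 103 CPM, and the ZcKO MII library with a sum of 682 CPM has 54.0 CPM of Mt1.

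The neighbours of Mt1 on chromosome 8 were read in the same libraries. Mt2, which ends 5.51 kb upstream of Mt1, had 0, 0 and 0 counts in the ZcKO GV libraries and 0, 1 and 0 in the control GV libraries. A count of 0 over the ZcKO GV group allows up to 0.305 CPM, a limit that covers counting error only. It does not cover reads left uncounted where Mt2 overlaps Gm45774 on the other strand, and whether any were was not tested. In MII oocytes Mt2 had 2, 9 and 2 counts in ZcKO and 1, 5 and 3 in control, so the groups overlapped. Mt2 was below the filter on low counts and no difference was tested. Mt3, known from brain, had 1, 0 and 0 counts in ZcKO GV, 0, 5 and 2 in control GV, 0, 4 and 0 in ZcKO MII and 0, 1 and 0 in control MII libraries.

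Nup93, a nuclear pore gene 34.2 kb downstream of Mt1, averaged 128 ± 35.9 CPM in ZcKO GV and 123 ± 25.8 CPM in control GV oocytes (SD). At MII it was at 119 to 176 CPM in ZcKO against 196 to 290 CPM in control, lower without overlap. Bbs2, a ciliary gene 80.2 kb upstream, averaged 11.0 ± 3.99 CPM in ZcKO GV and 12.8 ± 3.48 CPM in control GV oocytes (SD), and at MII it was at 6.05 to 8.43 CPM in ZcKO against 5.70 to 8.75 CPM in control. Ogfod1, 111 kb upstream, overlapped at GV, averaging 8.95 ± 4.14 CPM in ZcKO against 9.33 ± 1.59 CPM in control (SD). At MII it averaged 10.8 ± 1.99 CPM in ZcKO against 7.43 ± 1.24 CPM in control (SD), and the lowest ZcKO library (8.55 CPM) lay above the highest control (8.15 CPM). Of all 9677 genes fitted at MII, 8.19% lay higher in ZcKO without overlap, and the share that lay lower is not given here. No test is given for Nup93 or Ogfod1. The lincRNA Gm39228, 2.96 kb downstream of Mt1, had 0 counts in each library. Counts per gene do not show where along Mt1 the reads lie. As background, some Cre constructs end in a polyadenylation segment of mouse Mt1. The make-up of the transgene used here is not given in the sources used here, and reads from such a segment cannot be told apart from Mt1 mRNA.

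Mt4, the metallothionein of stratified epithelia, was present at low levels in each library. It had 29, 43 and 27 counts in ZcKO GV against 28, 11 and 24 counts in control GV oocytes, and 55, 60 and 53 counts in ZcKO MII against 44, 32 and 49 counts in control MII oocytes. Scaled to library size the genotypes overlapped at GV and not at MII, at 18.2 to 21.1 CPM in ZcKO MII against 9.66 to 13.3 CPM in control MII oocytes. Neither difference passed in edgeR (quasi-likelihood fit, Benjamini-Hochberg over all genes), with log2 fold changes of 0.77 (SE 0.39, adjusted p = 1) at GV and 0.69 (SE 0.27, adjusted p = 0.53) at MII.

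Mtf1, the zinc sensor, lies at chr4:124802104-124849800 (plus strand) and was well measured in both genotypes. Its levels were 129, 101 and 99.6 CPM in ZcKO GV libraries and 92.3, 86.0 and 110 CPM in control GV libraries. They were 64.4, 80.2 and 76.6 CPM in ZcKO MII libraries and 50.2, 78.8 and 58.7 CPM in control MII libraries. The genotypes overlapped at both stages. The log2 fold change was 0.15 (SE 0.20, adjusted p = 1) at GV and 0.21 (SE 0.20, adjusted p = 0.727) at MII in edgeR. The overlapping gene 1110065P20Rik on the other strand holds 7.55% of the 50-base stretches of Mtf1, and its reads cannot be told apart from those of Mtf1 there. Slc30a1 likewise shares 8.01% of its 50-base stretches with 1700034H15Rik on the other strand. Slc39a6 overlaps Elp2 on the other strand, but 0 of its 4061 stretches occur in a transcript of another gene. Slc30a3 overlaps Dnajc5g on the other strand, and its stretches were not examined. No strand setting is known for the counts.

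Slc30a1, at chr1:191906767-191913247 (plus strand), was barely detected. It had 2, 1 and 2 counts in ZcKO GV libraries and 0, 1 and 0 in control GV libraries. In MII oocytes it had 2, 0 and 0 counts in ZcKO and 2, 0 and 0 in control. These counts are at or near the floor of 3 counts per group and no difference was detectable at this depth.

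Slc39a6 and Slc39a10, the importers, were among the most abundant zinc genes in all groups. Slc39a6 (chr18:24579881-24603817, minus strand) had 323, 297 and 234 CPM in ZcKO GV and 248, 261 and 251 CPM in control GV oocytes. It had 162, 184 and 154 CPM in ZcKO MII and 139, 193 and 188 CPM in control MII oocytes. The genotypes overlapped at both stages. Slc39a10 (chr1:46807544-46892852, minus strand) had 312, 371 and 366 CPM in ZcKO GV and 472, 264 and 397 CPM in control GV oocytes. It had 885, 900 and 960 CPM in ZcKO MII and 627, 943 and 889 CPM in control MII oocytes. Here too the genotypes overlapped, and the control libraries spread more widely.

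For Slc39a6 the log2 fold change, ZcKO over control, was 0.13 at GV (2 SE interval -0.26 to 0.51) and -0.085 at MII (-0.40 to 0.23). For Slc39a10 it was -0.15 at GV (-0.56 to 0.26) and 0.13 at MII (-0.18 to 0.45), and both signs turned when ERCC totals set the library sizes, to 0.31 and -0.069. The median of all genes on that scale was 0.46 at GV and -0.15 at MII. Slc39a10 thus lay below the median gene at GV and above it at MII. Leaving out 1 library turned the GV sign of each gene: -0.024 for Mtf1 and -0.013 for Slc39a6 without ZcKO GV library 1, and 0.0034 for Slc39a10 without control GV library 1. Of the 3 fitted genes other than Mt1, 0 were called by edgeR at either stage, 0 had an unadjusted p under 0.05 and 0 were called by DESeq2. Over all genes 0.0825% were called at GV and 0% at MII, where DESeq2 called 4 genes.

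**Figure D3:**
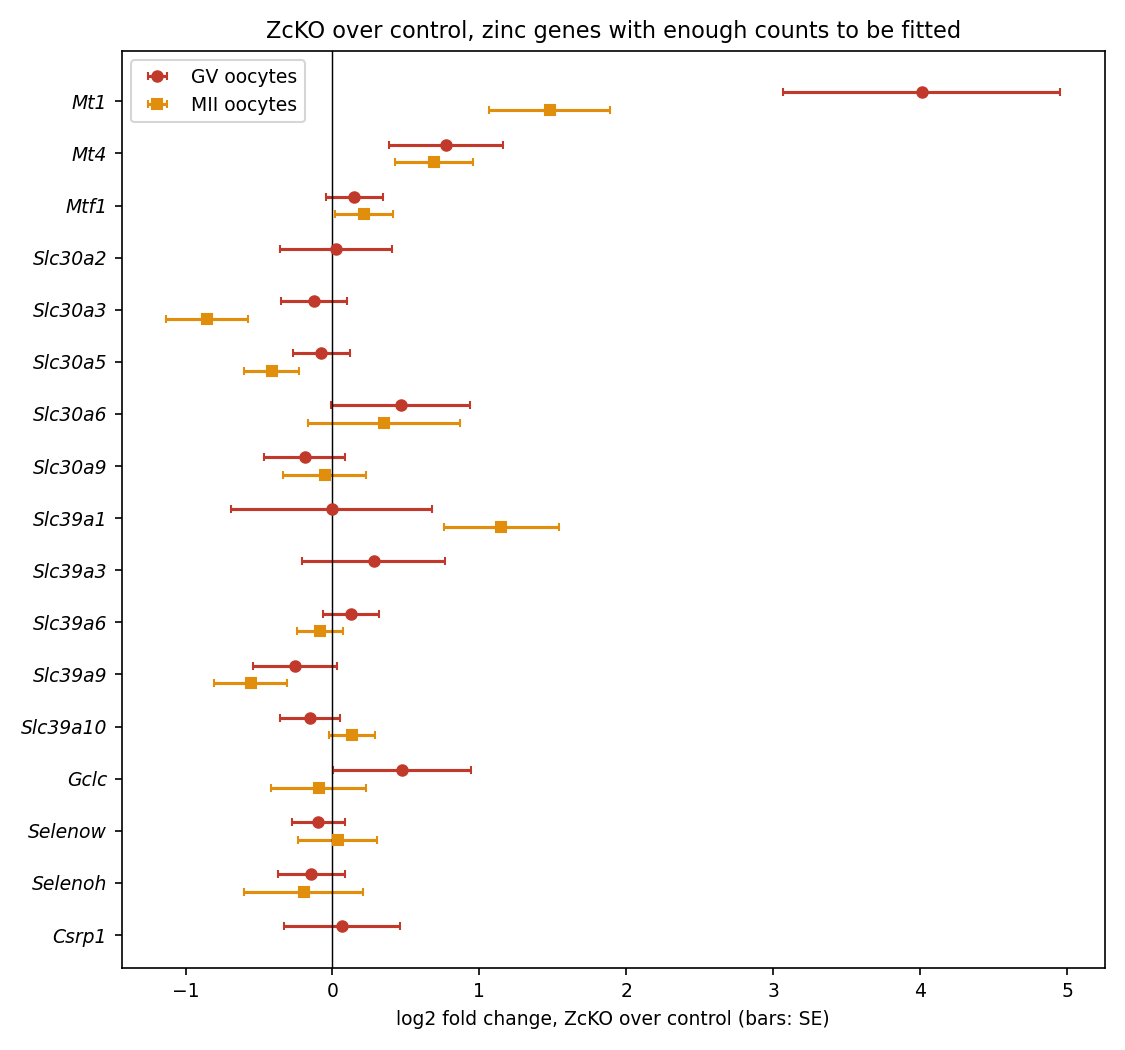
Log2 fold change, ZcKO over control (horizontal axis, bars 1 SE, vertical line at 0), for zinc genes with enough counts, at GV (circles) and MII (squares). Mt1, which was chosen for this difference, stands at 4.01 and 1.48, and the other genes lie between -0.85 and 1.15.

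Other zinc genes gave no genotype call. Of 28 further metallothionein, zinc exporter (ZnT), zinc importer (ZIP) and MTF1-linked genes, 13 were fitted at GV and 10 at MII. edgeR and DESeq2 each called 0 at both stages, where edgeR called 0.0825% of all genes at GV and 0% at MII. The median log2 fold change was -0.0059 at GV and -0.074 at MII, beside 0.012 and 0.017 over all genes. At an unadjusted p under 0.05 edgeR gave 0 at GV and 5 at MII (DESeq2 0 and 3), while 2.2% of all genes reached that level at GV and 9.01% at MII.

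These 5 genes were Mt4 (above) and 4 transporters. Slc39a1, the plasma membrane importer ZIP1, had 26.1, 12.7 and 9.27 CPM in ZcKO MII against 6.27, 8.45 and 6.25 CPM in control MII oocytes, without overlap (log2 fold change 1.15, SE 0.39, adjusted p = 0.53 in edgeR). The ZcKO library with the most Slc39a1 was also the one with the highest cumulus marker sum, and without it the log2 fold change was 0.63. Slc30a3, the vesicular transporter ZnT3, had 51.0, 77.2 and 61.7 CPM in ZcKO MII against 150, 74.0 and 107 CPM in control MII oocytes. Its log2 fold change was -0.85 (SE 0.28, adjusted p = 0.53 in edgeR, 0.00983 with no filter on low counts). Slc30a5, a transporter of the secretory pathway, had a log2 fold change of -0.41 (SE 0.19) and Slc39a9, a Golgi importer, of -0.56 (SE 0.25), both with adjusted p = 0.552 in edgeR.

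Metallothionein genes also respond to copper, glucocorticoids, oxidants and heat. In the lists for copper handling, iron handling, glucocorticoid targets, NRF2 targets and heat shock, 38 genes other than the zinc genes were fitted at GV and 37 at MII. edgeR and DESeq2 each called 0 of them at either stage, with 1 at GV and 5 at MII at an unadjusted p under 0.05 in both tools. Over all genes edgeR called 0.0825% at GV and 0% at MII, so 0 calls say little about these lists. At an unadjusted p under 0.05 the edgeR shares of all genes were 2.2% at GV and 9.01% at MII. Their median log2 fold change was 0.030 at GV and 0.042 at MII, within a range of -0.58 to 0.51 at GV and -0.89 to 0.98 at MII.

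Compared per kilobase of annotated exon, the order of the zinc genes differed between groups. In ZcKO GV oocytes Mt1 came first at 303 ± 57.3 CPM per kb, followed by Slc30a3 at 150 ± 26.5 and Slc39a6 at 69.8 ± 11.2 (SD). In control GV oocytes Slc30a3 came first at 158 ± 32.6 CPM per kb, Slc39a6 and Slc39a10 stood at 62.1 ± 1.72 and 62.0 ± 17.4, and Mt1 followed at 17.5 ± 24.4 (SD). Slc39a6 and Slc39a10 in control GV oocytes did not differ beyond their spread, nor did Mt1 and Mt4 at 14.6 ± 8.40. Mtf1 was sixth in both GV groups, at 12.3 ± 1.86 CPM per kb in ZcKO and 10.8 ± 1.41 CPM per kb in control (SD). The annotated exons of Mt1 cover the whole 1246 bases of the gene, so its values per kb are low estimates if only spliced mRNA is present.

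In MII oocytes Slc39a10 was first in both genotypes, at 150 ± 6.54 CPM per kb in ZcKO and 135 ± 27.7 CPM per kb in control (SD). In ZcKO MII oocytes Mt4 at 48.7 ± 3.81, Mt1 at 42.9 ± 12.9 and Slc39a6 at 41.0 ± 3.77 CPM per kb came next, with Mt1 overlapping both. In control MII oocytes Slc39a6 at 42.6 ± 7.39, Slc30a3 at 38.9 ± 13.5 and Mt4 at 29.3 ± 4.64 CPM per kb came next, and Mt1 followed at 15.3 ± 10.4 (SD). Mt2 and Slc30a1 stayed low per length in each group, with highest means of 2.38 and 0.0994 CPM per kb. Both overlap a gene on the other strand, and whether reads were left uncounted there is not known.

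**Figure D4:**
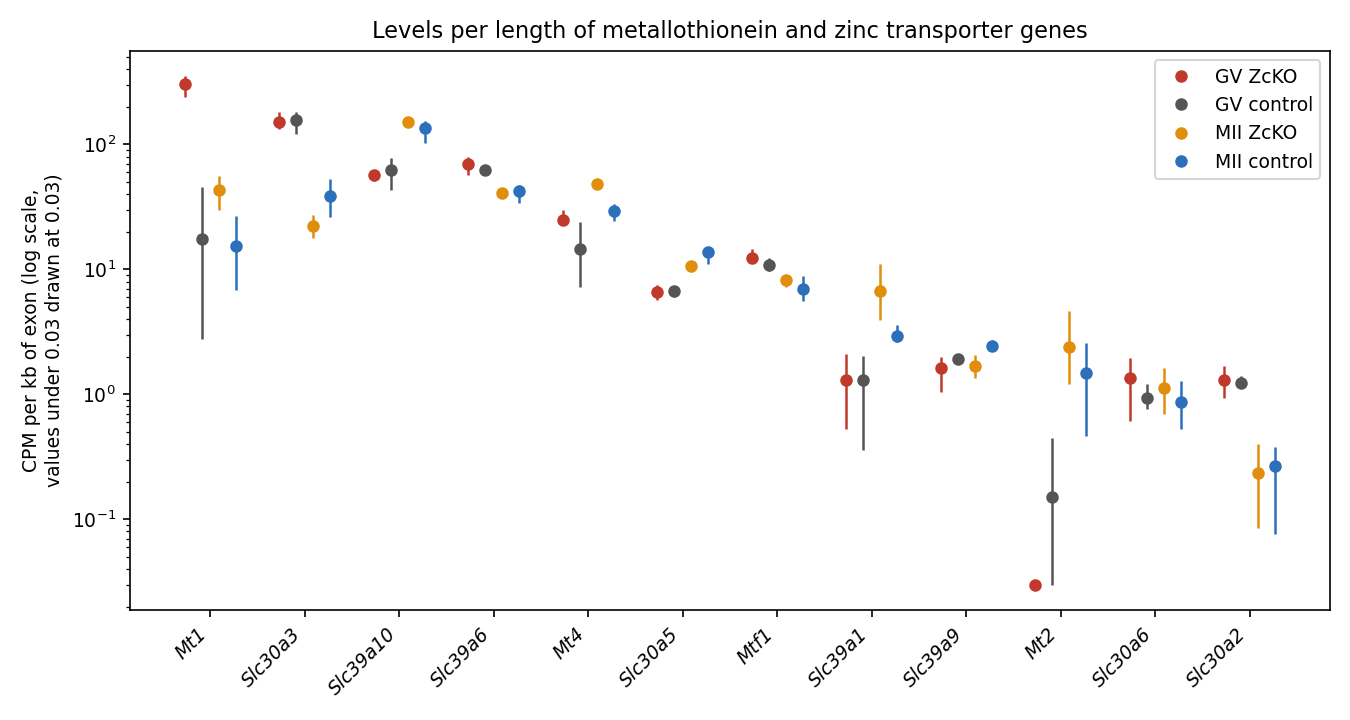
CPM per kb of exon (vertical, log scale) of the 12 most abundant among metallothionein genes, zinc transporter genes and Mtf1, with points for means of 3 libraries and lines from lowest to highest library. Mt1 is first in ZcKO GV oocytes at 303 CPM per kb and below Slc30a3, Slc39a6 and Slc39a10 in control GV oocytes at 17.5 CPM per kb.

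Between the stages, Slc39a10 rose at MII in both genotypes relative to other mRNAs, with a log2 fold change, MII over GV, of 1.53 in ZcKO (SE 0.20, 2.90-fold, adjusted p = 2.29e-06) and 1.26 in control (SE 0.19, 2.39-fold, adjusted p = 1.92e-05, edgeR), but its sign turned with ERCC totals as library sizes, to -0.80 in ZcKO (adjusted p = 0.0458) and -0.42 in control (adjusted p = 0.321). Per 100000 ERCC counts it had 145 to 199 counts in ZcKO MII against 230 to 409 in ZcKO GV libraries, and 116 to 218 in control MII against 185 to 345 in control GV libraries, and only the control ranges overlapped. The median of all genes shifted to -2.37 in ZcKO and -1.72 in control on that scale, so Slc39a10 lay above the median gene on both.

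Slc39a6 fell at MII in ZcKO, by 0.64 on the log2 scale (SE 0.18, adjusted p = 0.00538, edgeR). In control its log2 fold change was -0.41 (SE 0.18, adjusted p = 0.0536 in edgeR, 0.021 in DESeq2 and 0.0347 with RLE scaling). That value passed the threshold without ZcKO GV library 1 (adjusted p = 0.0379) or without ZcKO GV library 3 (adjusted p = 0.0267). Mtf1 fell in control by 0.49 (SE 0.21, adjusted p = 0.0433, edgeR), and its log2 fold change in ZcKO was -0.44 (SE 0.21, adjusted p = 0.0711, edgeR). The control call for Mtf1 was lost, with adjusted p between 0.0523 and 0.173, without any 1 of control GV libraries 1, 2 and 3, control MII libraries 1 and 3, ZcKO GV library 2 or ZcKO MII library 2. The ZcKO value passed without ZcKO GV library 3 (adjusted p = 0.0354).

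Of the 3 fitted genes other than Mt1, 2 were called between stages in each genotype, beside 63.5% of all genes in ZcKO and 63.9% in control. For Mt1 the log2 fold change, MII over GV, was -2.69 (SE 0.81) in ZcKO and -0.15 (SE 0.85) in control, given without a test because the ZcKO levels chose the gene. The control value was 2.28 without control GV library 3 and 0.16 without control MII library 1, so its sign rests on single libraries. All 3 ZcKO MII libraries, at 37.1 to 69.3 CPM, lay below all 3 ZcKO GV libraries, at 299 to 439 CPM.

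The difference of the stage changes, ZcKO minus control, was 0.28 (SE 0.27, adjusted p = 0.905) for Slc39a10 and -0.22 (SE 0.26, adjusted p = 0.923) for Slc39a6 in edgeR. For Mtf1 it was 0.056 (SE 0.29, adjusted p = 0.986). With ERCC totals the value was -0.38 for Slc39a10 and -0.62 for Mtf1, relative to a median of -0.61 over all genes. None of the 3 was called by edgeR, DESeq2 or at an unadjusted p under 0.05 (0 each), beside 0.00862% of all genes called.

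Among the 14 other zinc genes fitted across the stages, 4 rose and 6 fell in ZcKO and 5 rose and 6 fell in control at MII (edgeR). Over all genes 29.5% rose and 34% fell in ZcKO, and 30.1% rose and 33.8% fell in control. With ERCC totals as library sizes the sign of every riser named here turned to lower, other than Slc39a1 in ZcKO at 0.35 (adjusted p = 0.576). Mt4 rose with a log2 fold change of 1.09 in ZcKO (SE 0.33, adjusted p = 0.00718) and 1.19 in control (SE 0.35, adjusted p = 0.00579). Slc39a1 rose by 2.48 in ZcKO (adjusted p = 4.57e-04, edgeR) and by 1.34 in control (adjusted p = 0.0355, edgeR), on the log2 scale. The control call for Slc39a1 was lost without any 1 of control GV libraries 1 and 3 and control MII libraries 1 and 2 (adjusted p 0.0565 to 0.176).

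Slc30a5 rose by 0.84 in ZcKO and 1.19 in control, and Slc30a9, a mitochondrial zinc transporter, by 0.94 in ZcKO and 0.82 in control, on the log2 scale. The control call for Slc30a9 was lost without control MII library 2 (adjusted p = 0.0632). Gclc, the catalytic subunit of glutathione synthesis, had a log2 fold change of 0.60 in ZcKO (adjusted p = 0.22, edgeR) and rose by 1.18 in control (adjusted p = 0.02, edgeR). Its control call was lost without control GV library 1 or 3 or control MII library 3 (adjusted p 0.0622 to 0.0851), and its ZcKO value passed without ZcKO GV library 1 (adjusted p = 0.0301). Slc39a9 had log2 fold changes of 0.18 in ZcKO and 0.50 in control, neither of them called.

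Slc30a3 fell in both genotypes, averaging 63.3 ± 13.2 CPM in ZcKO MII against 425 ± 75.0 CPM in ZcKO GV oocytes, and 110 ± 38.3 CPM in control MII against 448 ± 92.4 CPM in control GV oocytes (SD). Its log2 fold change was -2.61 in ZcKO (SE 0.29, adjusted p = 3.49e-07, edgeR) and -1.87 in control (SE 0.27, adjusted p = 1.15e-05, edgeR). Slc30a2, a vesicular exporter, fell by 2.31 in ZcKO and 2.05 in control on the log2 scale, and the importer gene Slc39a3 fell by 3.11 in ZcKO and 2.67 in control. The selenoprotein genes Selenow and Selenoh, which have been linked to MTF1, fell by 2.52 and 1.72 in ZcKO and by 2.64 and 1.65 in control. Csrp1, a LIM domain gene, fell by 2.06 in ZcKO and 1.42 in control. Its control call (adjusted p = 0.0385) was lost without any 1 of control GV libraries 1 and 3, the 3 control MII libraries or ZcKO GV library 2 (adjusted p 0.0551 to 0.178).

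**Figure D5:**
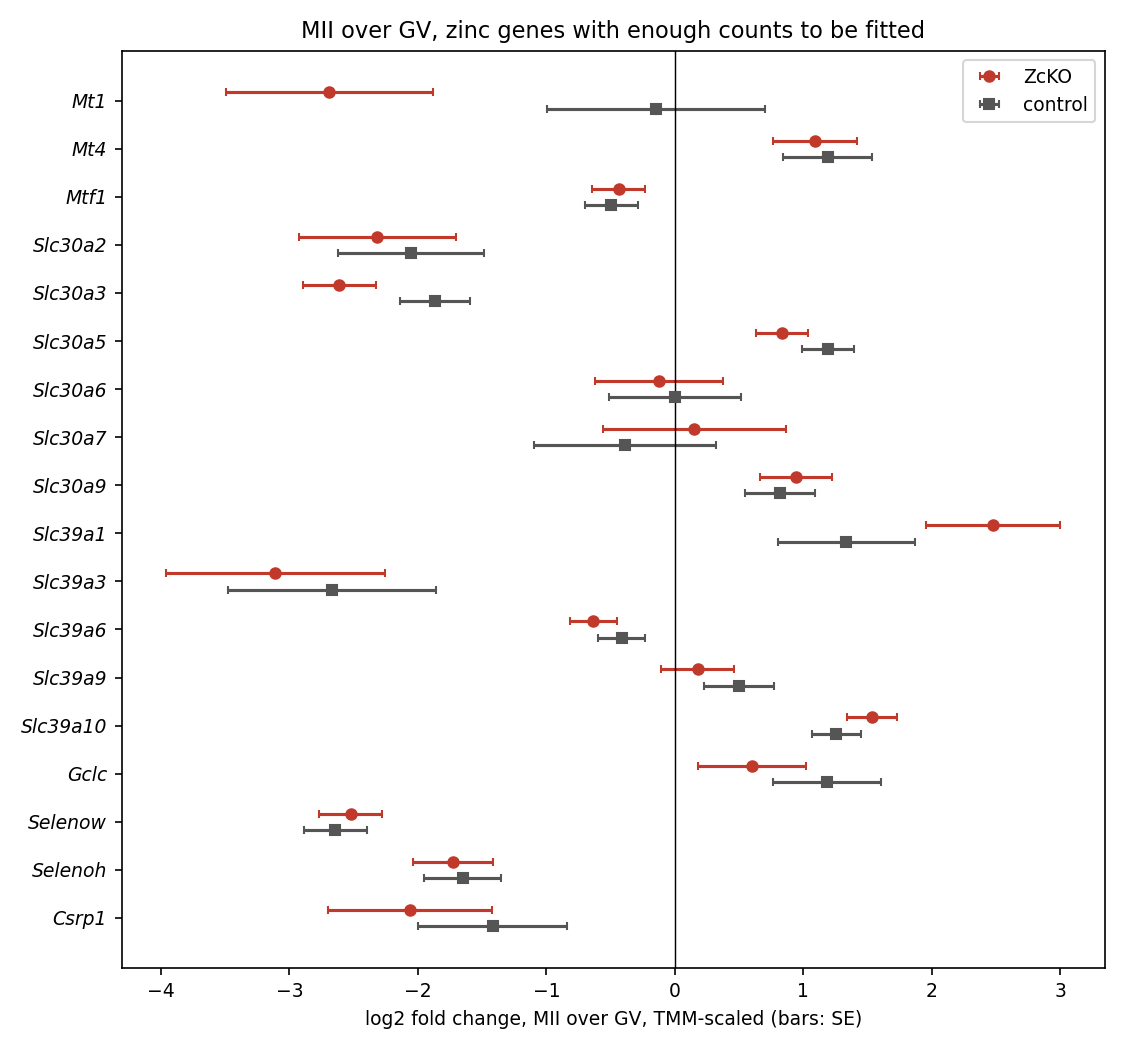
Log2 fold change, MII over GV, with TMM scaling (horizontal axis, bars 1 SE, vertical line at 0), for zinc genes with enough counts in ZcKO (circles) and control (squares). Slc39a10 stands at 1.53 and 1.26 and Slc30a3 at -2.61 and -1.87, while Mt1 stands at -2.69 in ZcKO and -0.15 in control.

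Among 7580 other genes with a mean of at least 10 CPM, the patterns most like Mt1 over the 12 libraries were those of Aimp1 (Pearson r = 0.846 of log2 CPM + 1), Klc1 (0.846), Nrd1 (0.735), Ypel3 (0.729) and Gm973 (0.728). With each stage centred on its mean the 5 were Atp2b1 (0.889), Klc1 (0.880), Ofd1 (0.866), Ppp4r3a (0.857) and Cdc42ep3 (0.852). Klc1, a kinesin light chain, was in both sets, at 31.0 ± 4.43 CPM in ZcKO GV, 19.1 ± 3.92 in control GV, 17.9 ± 0.605 in ZcKO MII and 18.6 ± 0.809 in control MII oocytes (SD). The 12 points share 4 groups, so these values describe group patterns as much as libraries. Mtf1 stood at r = 0.566 with Mt1 as measured and 0.626 with stages centred, Slc39a6 at 0.404 and 0.397, and Slc39a10 at -0.190 and 0.156. How many of the 7580 genes reached such values is not given here, and Mt1 was chosen for its genotype difference. Mt2 had too few counts for a likeness to be read.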

How the data were processed

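RNA was measured in 12 libraries of GV and MII oocytes; the 2-cell samples were not used here. The authors deposited a table of raw read counts, whole numbers with 1 row per gene symbol. fastp, HISAT2, featureCounts and the build mm10 are named per the submitters' processing notes, with no versions; strand setting, annotation and treatment of multiply mapped reads were not given in the sources used here. Columns with the letter C were read as control and those with T as ZcKO, although the titles use neither letter, and every genotype direction rests on this. Another 6 columns match no label and were not used.

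Gene counts were fitted with edgeR 4.0.16 (R 4.3.3; TMM, filterByExpr, robust quasi-likelihood) and p-values adjusted by Benjamini-Hochberg over all genes at 0.05. The SE of an edgeR log2 fold change is its absolute value divided by the square root of the quasi-likelihood F statistic. It was derived from the test and not estimated separately. A genotype comparison used the 6 libraries of its stage, and the stage and interaction terms used all 12. CPM are scaled to the gene total without TMM. Alternatives were DESeq2 1.42.0, RLE factors, ERCC totals (92 spike-ins) as library sizes, no filter, a replicate block, all 12 libraries in 1 fit and leaving out each library. The GV genotype fit was run on simulated counts drawn from its own dispersions, and the outcome is not given here.

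The members and gene lists were chosen with earlier results of these data known. Named zinc genes were the 6 members and those past the threshold in any comparison or otherwise at 10 CPM or more in a group mean; Slc30a6 and Slc30a7 were fitted and are shown in figures only. For likeness, the 5 genes nearest to Mt1 and to Mt2 were taken. Libraries of a group differed by more than sampling noise (smallest chi-square 5.38 per degree of freedom). The series calls the replicates biological, and no label ties libraries to animals, so p-values and 2 SE intervals measure the spread between these libraries; floors (3 counts) cover counting error only.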

Additional observations from a re-analysis of the deposited data

How the results depend on the processing

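Calls of all genes moved with the settings as follows. At GV, 9 genes were called, against 28 with no filter, 3 with all 12 libraries in 1 fit and 2 to 10 with 1 library left out (2 without ZcKO GV library 2, 4 without control GV library 2). At MII, 0 genes were called, against 4 with DESeq2, 96 with no filter and 0 to 0 with 1 library left out. The interaction gave 1 call, against 5 with DESeq2, 3 with ERCC totals, 18 with no filter and 0 to 3 with 1 library left out. Stage counts stayed within 1.5 times of 7371 in ZcKO and 7418 in control, with ranges of 6670 to 7686 and 6788 to 7703 when 1 library was left out. With ERCC totals only 0.903% of the ZcKO and 0.792% of the control stage calls were higher, and 54.5% of the GV genotype calls, against 2 of 9 with TMM.

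With ERCC totals these log2 fold changes turned sign: Slc39a10 0.31 at GV, -0.069 at MII, -0.80 across stages in ZcKO, -0.42 in control and -0.38 for the interaction, and Mtf1 -0.62 for the interaction. Across stages in ZcKO the values were Mt4 -1.22, Slc30a5 -1.50, Slc30a9 -1.37, Slc39a9 -2.21 and Gclc -1.89. In control they were Mt4 -0.47, Slc30a5 -0.58, Slc30a9 -0.91, Slc39a1 -0.30, Slc39a9 -1.22 and Gclc -0.55. With spike-in scaling the median gene stood at 0.46 at GV, -0.15 at MII, -2.37 and -1.72 across stages in ZcKO and control, and -0.61 for the interaction.

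With 1 library left out, ranges that crossed 0 were -0.024 to 0.26 (Mtf1, GV), -0.013 to 0.28 (Slc39a6, GV), -0.33 to 0.0034 (Slc39a10, GV), -0.77 to 2.28 (Mt1, control stage change), -0.059 to 0.23 (Mtf1, interaction) and -0.085 to 0.35 (Slc39a9, ZcKO stage change). Mt1 ranged from 3.53 to 6.44 at GV and from 1.16 to 2.11 at MII. The cause of these changes was not tested.

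Same-numbered libraries of different groups correlated at -0.317 to 0.334. Values for different-numbered libraries are not given beside them, so these correlations cannot decide whether libraries are paired by replicate number. With the number as a block, 11 genes were called at GV, 0 at MII, 7233 across stages in ZcKO, 7272 in control and 1 for the interaction, and the control calls of Mtf1 (adjusted p = 0.06) and Csrp1 (adjusted p = 0.0537) were lost. With 3 libraries a group, Mt2 and Slc30a1 were too shallow for any comparison.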
